A study of Mus musculus with 6 samples.

Results

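The genes described here encode the subunits of the mitochondrial respiratory chain and ATP synthase that come from the nuclear genome, measured in immature thymus cells of C57BL/6 mice after exposure of fetal thymus cultures to TCDD (2,3,7,8-tetrachlorodibenzo-p-dioxin). They were chosen by symbol alone: every gene measured by a single-gene probe set whose mouse symbol starts with Nduf, Uqcr, Cox4 to Cox8 or Atp5, or is Sdha, Sdhb, Sdhc or Sdhd. The rule found 84 genes among 12393, covered by 156 of the array's 22690 probe sets, and the rule itself uses no measured value, although it was proposed with earlier results of these data known. Where a gene had several probe sets, the brightest on average stood for it. Sorted by symbol, the set held 34 subunits of complex I, 5 complex I assembly factors, 4 subunits of complex II, 8 of complex III, 16 of complex IV and 17 of complex V. Gene symbols follow a RefSeq gene table, or the array annotation where that table had none. The mitochondrial ATP synthase genes carry the Atp5 names given there, many of them older ones.

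Lobes were taken from C57BL/6 fetuses at gestation day 15 and kept in organ culture for 6 days, with the medium renewed every 2 days. The medium held 10 nM TCDD, which activates the aryl hydrocarbon receptor (AHR), a ligand-dependent transcription factor, or its solvent dioxane, given as 0.1% by volume for the thymocyte label. Cells carrying neither CD4 nor CD8 (double-negative cells, which include the earliest T-cell precursors) were isolated magnetically, to a stated purity above 95%. They came from the fluid outside the lobes (emigrants) or from inside the lobes (thymocytes), and amplified RNA of pooled cells was put on 1 Affymetrix array for each sample. There were 4 groups, emigrants with TCDD (2 arrays), emigrants with dioxane (2 arrays), thymocytes with TCDD (1 array) and thymocytes with dioxane (1 array). Emigrant arrays are called 1 and 2 after their labels, except that the label of dioxane emigrants 1 carries no number and the array is called 1 beside its partner labelled 2. The labels do not say that a number joins a TCDD with a dioxane array, so pairs of emigrant arrays are a way of describing the values, and a pair of emigrants 1 rests on that naming. Nothing in the labels tells whether 2 arrays of a group stem from different cultures, and p-values therefore cover only the variation among the 6 arrays, part or all of which may be technical.

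The respiratory chain passes electrons from NADH (through complex I) and from succinate (through complex II) to ubiquinone, then through complex III and cytochrome c to complex IV, where oxygen is reduced. Complexes I, III and IV pump protons across the inner mitochondrial membrane, and complex V lets them flow back to make ATP. Complex II is encoded wholly in the nucleus, while a few core subunits of the other complexes come from mitochondrial DNA and are not among these genes. In the thymus, early precursors divide rapidly before and after they rearrange their receptor genes, a phase that draws on mitochondrial respiration as well as glycolysis.

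All levels below are deposited log2 signals and all differences are log2 units, in which 1 unit is a 2-fold difference. Because probe sets differ in how well they bind, levels of different genes are not compared. Array medians lay between 4.84 and 4.88, and the highest unspiked bacterial control on an array lay between 4.32 and 4.92. The mean of 79 of the 84 genes exceeded all these controls, and 78 genes exceeded the control of their own array on every array. The genes whose mean did not were Cox4i2, Cox6b2, Cox7a1, Cox8b and Ndufb1. In the ranking of all genes by mean level, 76 of the 84 stood at or above the median. For 48 genes the representing probe set is of a type that can bind several transcripts (suffix a, s or x), and 45 genes had more than 1 probe set.

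Several measurements set the arrays apart before any respiratory chain gene is considered. The AHR targets show the treatment unevenly. Cyp1a1, a cytochrome P450 and a classical AHR target, read 7.88, 4.22 and 5.98 with TCDD in thymocytes, emigrants 1 and emigrants 2, against 3.99, 3.96 and 3.84 with dioxane. Tiparp, an ADP-ribosyltransferase induced by AHR, read 9.35, 6.66 and 9.82 with TCDD in thymocytes, emigrants 1 and emigrants 2, against 6.29, 6.66 and 6.33 with dioxane. Over 7 such targets the median TCDD minus dioxane difference was 3.62 in thymocytes, 0.26 in emigrants 1 and 2.14 in emigrants 2, with 7, 4 and 7 of them higher, so the array labelled TCDD among emigrants 1 differed little from its dioxane partner in the median of these genes. Whether its exposure or its label is right cannot be settled from the files, and TCDD in emigrants 1 means only the array with that label. Cyp1b1, another AHR-induced P450, was nevertheless 5.90 there, against 4.66 in dioxane emigrants 1. Of the other targets, Scin was also higher there, with 7.06 against 5.21, and so was Xdh, with 6.13 against 5.19. Ahrr, with 4.04 against 4.45, and Nqo1, with 5.31 against 6.07, were lower there.

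Cell type markers also differed between the arrays. The mean level of 10 neutrophil genes was 10.2 in TCDD emigrants 1 and 8.97 in dioxane emigrants 1, 6.92 and 5.95 in TCDD and dioxane emigrants 2, and 5.12 and 5.15 in TCDD and dioxane thymocytes. Over 12 T-lineage genes it was 5.56 in TCDD emigrants 1 and 5.74 in dioxane emigrants 1, 6.68 and 8.37 in TCDD and dioxane emigrants 2, and 7.99 and 8.95 in TCDD and dioxane thymocytes. Of these T-lineage genes, 7 and 9 exceeded the bacterial controls in TCDD and dioxane emigrants 1, 10 and 12 in TCDD and dioxane emigrants 2, and 11 and 12 in TCDD and dioxane thymocytes. In emigrants 2 the T-lineage genes did not move alike. The receptor rearrangement genes Dntt and Rag1 read 5.61 and 3.61 with TCDD, against 11.96 and 9.99 with dioxane. The CD3 chain genes Cd3e and Cd3g read 8.00 and 9.08 with TCDD, against 7.68 and 8.97 with dioxane, and Cd3d read 9.62 against 10.16. Macrophage and dendritic genes (10) averaged 7.08 to 9.39 on the emigrant arrays and 5.34 to 5.44 on the thymocyte arrays, and 6 erythroid genes averaged 6.48 and 6.72 in emigrants 1 and 4.67 to 4.95 on the other arrays. Fibroblast and endothelial genes (8) had median TCDD minus dioxane differences of -0.06 in thymocytes, 0.17 in emigrants 1 and 1.49 in emigrants 2. All 12 proliferation genes were lower with TCDD in the fit over both sources, with a median of -0.66. Their mean level was 8.35 and 9.33 in TCDD and dioxane thymocytes and 8.33 and 9.41 in TCDD and dioxane emigrants 2. In emigrants 1 it was not lower with TCDD, with 8.97 against 8.88 with dioxane. All 10 neutrophil and all 10 macrophage genes lay above the bacterial controls on every emigrant array, against 8 or 9 on the thymocyte arrays. In whole-sample RNA, more cells of a type and more RNA per cell cannot be told apart, and the part of these differences in the results below was not tested.

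TCDD against dioxane was compared first in each pair of arrays from the same cell source and number, to see how the respiratory chain genes differed with AHR activation. Most of these genes were higher on the array labelled TCDD in emigrants 1, while the other pairs centred near 0. The median difference over the 84 genes was 0.11 in thymocytes (55 higher, 29 lower), 0.57 in emigrants 1 (67 higher, 17 lower) and -0.08 in emigrants 2 (33 higher, 51 lower). Over all 12393 genes it was 0.01, -0.02 and -0.02. In emigrants 1, 41 of the 84 genes were at least 1.5-fold higher with TCDD, beside 11.5% of all genes, and 0 were at least 1.5-fold lower, beside 10.7%. Of the genes whose mean level reached the median of all genes, 40 of 76 did so, beside 17.5%. At 2-fold the counts in emigrants 1 were 18 higher, beside 3.66% of all genes, and 0 lower, beside 2.56%. In thymocytes 9 genes were at least 1.5-fold higher and 8 lower, beside 6.94% and 7.8% of all genes, and 2 were at least 2-fold higher and 1 lower, beside 2.83% and 2.79%. In emigrants 2 the 1.5-fold counts were 1 higher and 3 lower, beside 7.58% and 6.51%, and the 2-fold counts were 0 and 0, beside 3.43% and 2.16%.

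**Figure D1:**
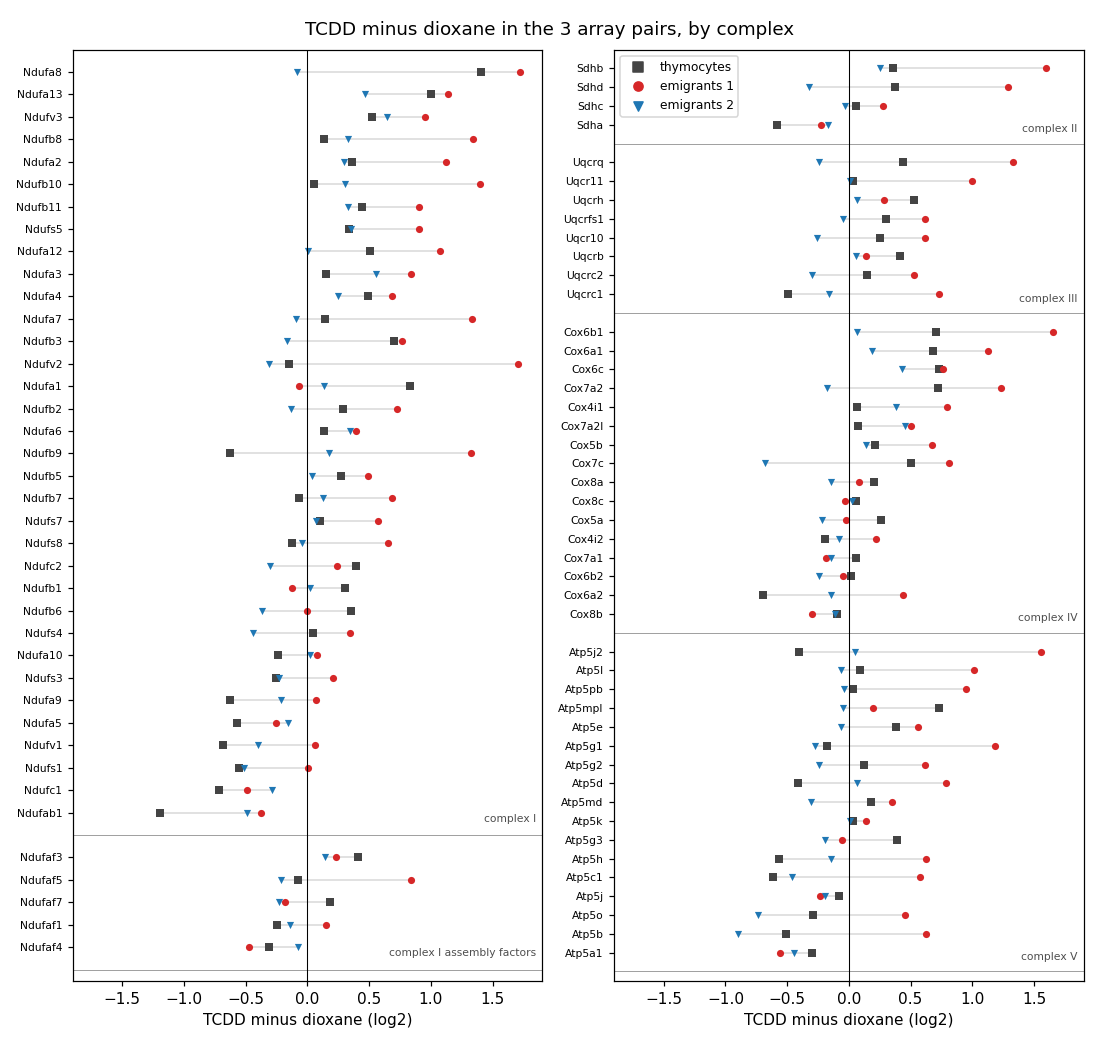
TCDD minus dioxane (log2, horizontal axis) for each of the 84 genes in the 3 array pairs (squares, thymocytes; circles, emigrants 1; triangles, emigrants 2), grouped by complex and ordered within each complex by the mean of the 3 pairs. Each point is the difference of 2 arrays and the grey line joins the 3 pairs of a gene; 67 circles lie right of 0, against 55 squares and 33 triangles.

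The levels place the difference in emigrants 1 on its dioxane array. That array was the lowest of the 6 for 51 of the 84 genes, beside 21.6% of all genes, and for 47 of the 76 at or above the median level, beside 26.6%. Relative to each gene's mean over the 6 arrays, the median of the 84 genes was 0.10 in TCDD emigrants 1 and -0.42 in dioxane emigrants 1, -0.03 and -0.01 in TCDD and dioxane emigrants 2, and 0.24 and 0.10 in TCDD and dioxane thymocytes. On dioxane emigrants 1 the same median was 0.01 over all genes and -0.08 over genes at or above the median level. Arrays of one treatment were not alike either: emigrants 1 minus emigrants 2 had a median of 0.21 with TCDD and -0.44 with dioxane. Cox7c, a small complex IV subunit, had the largest such gap, with 5.30 in dioxane emigrants 1 and 7.98 in dioxane emigrants 2. The ratio of 3′ to 5′ signal, a measure of RNA integrity and amplification, was 3.06 log2 units for beta-actin in dioxane emigrants 1 and 3.77 in TCDD emigrants 1, with 3.01 to 4.15 on the other arrays. Its part in the difference was not tested.

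**Figure D2:**
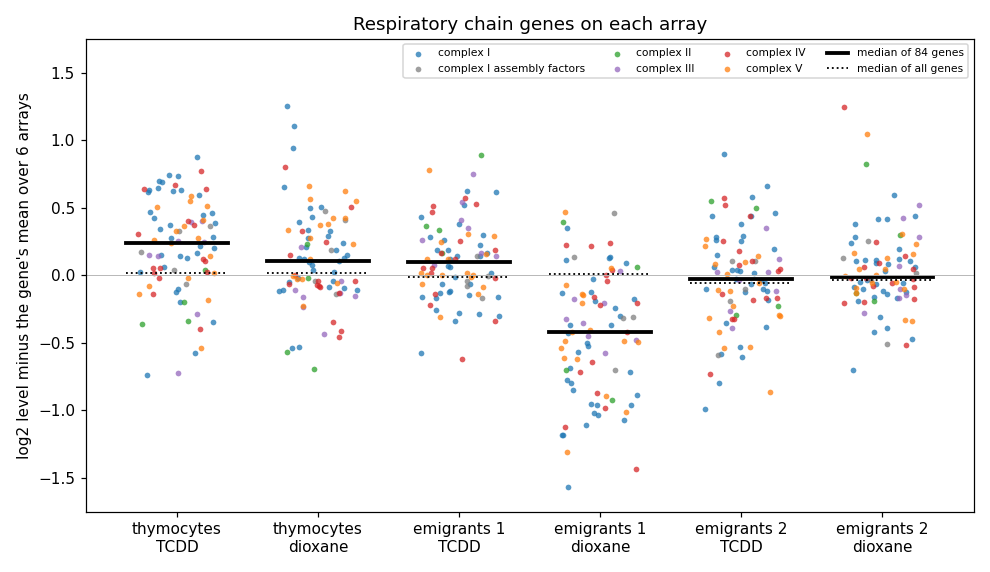
Log2 level of each of the 84 genes minus its own mean over the 6 arrays, by array, with TCDD left of dioxane in each pair and points coloured by complex. Solid bars are medians of the 84 genes and dotted bars medians of all genes; the solid bar of dioxane emigrants 1 lies at -0.42 and the others between -0.03 and 0.24.

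No gene passed the tests of TCDD against dioxane. With limma, 0 of 84 genes had an adjusted p under 0.05 in emigrants (0% of all genes called) or over both cell sources with source in the model (0% called). In emigrants 59 genes had a higher and 25 a lower mean with TCDD, with a median difference of 0.21, a median standard error of 0.32 and a smallest adjusted p of 1.00. Single arrays moved that median: it was 0.034 without dioxane emigrants 1, 0.13 without TCDD emigrants 1 and 0.50 without dioxane emigrants 2. At an unadjusted p under 0.05 there were 0 higher and 0 lower, beside 1.24% and 0.815% of all genes. Over both sources the median was also 0.21, the median standard error was 0.24, and 4 genes were higher and 1 lower at an unadjusted p under 0.05, beside 2.69% and 2.63% of all genes. The smallest adjusted p among them was 0.903, for Cox6a1. Over both sources the median was 0.044 without dioxane emigrants 1, 0.092 without TCDD emigrants 1, 0.33 without dioxane emigrants 2 and 0.022 without both arrays of emigrants 1, with 0 genes called in each.

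The direction was shared by all 3 pairs for a minority of the genes. There were 25 genes higher with TCDD in every pair (29.8% of the 84, beside 15.4% of all genes) and 8 lower in every pair (9.52%, beside 17.4%). Without the pair of emigrants 1, an alternative chosen after the data were seen, 28 genes were higher in both remaining pairs (33.3%, beside 28.8%) and 24 lower (28.6%, beside 32%), shares near the background. By complex, the genes higher in every pair were 13 of 34 in complex I, 1 of 5 assembly factors, 1 of 4 in complex II, 3 of 8 in complex III, 6 of 16 in complex IV and 1 of 17 in complex V. A difference of at least 1.5-fold in all 3 pairs was reached by 0 genes in either direction, beside 0.904% of all genes upward and 0.694% downward.

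The 5 genes with an unadjusted p under 0.05 for TCDD over both sources are Cox6a1, Ndufa8, Ndufa4 and Ndufa13, which were higher, and Ndufab1, which was lower. Their promoter sequences are shown because they are the members nearest to a call, and because nuclear respiratory chain genes are known to share binding sites for the factors NRF1 and GABPA (an ETS factor). Each window covers 250 bases before to 50 bases after the annotated start, in the RefSeq table on build GRCm38.p6, read 5′ to 3′ on the gene's strand. Capitals mark matches on either strand to the NRF1 motif GCGCNTGCG, the ETS motif CCGGAAG or the AHR core GCGTG.
Cox6a1: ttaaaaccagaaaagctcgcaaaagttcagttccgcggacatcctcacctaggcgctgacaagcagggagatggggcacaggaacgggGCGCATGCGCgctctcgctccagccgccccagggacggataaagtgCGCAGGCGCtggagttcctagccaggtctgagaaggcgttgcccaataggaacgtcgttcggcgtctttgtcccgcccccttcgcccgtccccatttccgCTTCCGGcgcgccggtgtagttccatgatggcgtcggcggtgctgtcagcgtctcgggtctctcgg
Ndufa8: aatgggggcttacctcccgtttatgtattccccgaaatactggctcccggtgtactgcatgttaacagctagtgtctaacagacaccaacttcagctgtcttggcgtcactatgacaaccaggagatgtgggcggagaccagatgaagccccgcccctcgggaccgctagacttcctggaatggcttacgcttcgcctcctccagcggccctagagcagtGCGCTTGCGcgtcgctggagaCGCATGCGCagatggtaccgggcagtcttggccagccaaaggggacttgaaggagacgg
Ndufa4: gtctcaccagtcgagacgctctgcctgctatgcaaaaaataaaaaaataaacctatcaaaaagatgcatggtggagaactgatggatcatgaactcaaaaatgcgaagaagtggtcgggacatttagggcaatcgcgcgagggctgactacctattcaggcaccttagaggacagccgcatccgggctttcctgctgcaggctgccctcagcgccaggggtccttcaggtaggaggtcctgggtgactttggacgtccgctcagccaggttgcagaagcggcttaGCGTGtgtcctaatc
Ndufa13: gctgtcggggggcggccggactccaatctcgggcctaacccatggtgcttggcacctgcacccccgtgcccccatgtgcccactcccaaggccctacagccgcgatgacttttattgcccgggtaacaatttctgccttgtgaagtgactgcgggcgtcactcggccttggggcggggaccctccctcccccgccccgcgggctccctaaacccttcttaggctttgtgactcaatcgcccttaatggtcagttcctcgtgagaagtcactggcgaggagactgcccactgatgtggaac
Ndufab1: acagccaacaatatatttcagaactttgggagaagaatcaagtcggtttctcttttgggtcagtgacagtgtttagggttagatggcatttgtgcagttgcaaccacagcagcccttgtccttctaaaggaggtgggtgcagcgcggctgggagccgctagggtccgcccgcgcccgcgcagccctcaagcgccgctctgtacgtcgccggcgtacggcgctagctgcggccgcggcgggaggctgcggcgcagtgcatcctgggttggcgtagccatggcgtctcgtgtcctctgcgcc

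These windows lie at chr5:115348909-115349208 (Cox6a1), chr2:36049289-36049588 (Ndufa8), chr6:11907401-11907700 (Ndufa4), chr8:69901971-69902270 (Ndufa13) and chr7:122101799-122102098 (Ndufab1), all on the minus strand. The Ndufa8 and Cox6a1 windows hold NRF1 matches, the Cox6a1 window also holds an ETS match, the Ndufa4 window holds an AHR core match, and the Ndufa13 and Ndufab1 windows hold none of the 3. Of the 84 genes, 70 had an entry in the promoter table, with 75 windows in all. The NRF1 motif occurred in 32% of these windows, beside 6.31% of all 32851 windows in the table. The ETS motif occurred in 24%, beside 8.86%, and the AHR core in 53.3%, beside 32.4%. The longer AHR motif TNGCGTG, which contains the core, occurred in 14.7%, beside 5.07%. A match describes the letters in the window and does not show binding.

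Complex I takes electrons from NADH through a catalytic core, around which many accessory subunits are arranged. Its median TCDD minus dioxane difference was 0.14 in thymocytes, 0.67 in emigrants 1 and 0.01 in emigrants 2. The 28 accessory subunits had medians of 0.28, 0.71 and 0.03 in these pairs, and the 6 core subunits -0.20, 0.39 and -0.27. Outside emigrants 1 the core subunits thus centred below 0: 5 of the 6 (all but Ndufs7) were lower with TCDD both in thymocytes and in emigrants 2, while 14 of the 28 accessory genes were higher in both. Over all genes 32% were lower and 28.8% higher in both pairs. Some of these signs rest on small differences or on the probe set chosen. Ndufs8 differed by -0.12 in thymocytes and -0.05 in emigrants 2, and probe sets of Ndufs8 and Ndufv2 disagreed in sign in thymocytes. Of the accessory genes higher in both, Ndufa12 and Ndufb1 differed by 0.01 and 0.02 in emigrants 2, and the mean of Ndufb1 did not exceed the bacterial controls. No test of the difference between the 2 groups of subunits was made.

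Ndufa8, an accessory subunit on the intermembrane-space side, read 9.11, 8.86 and 8.28 with TCDD in thymocytes, emigrants 1 and emigrants 2, against 7.71, 7.13 and 8.36 with dioxane. It was higher with TCDD by more than 1 unit in thymocytes and emigrants 1, while the arrays of emigrants 2 were nearly equal, and the fit over both sources gave 1.01 ± 0.38 (SE, unadjusted p = 0.0399, limma adjusted p = 0.915). Ndufa13, an accessory subunit also known as GRIM-19, read 8.78, 8.50 and 8.98 with TCDD in thymocytes, emigrants 1 and emigrants 2, against 7.78, 7.36 and 8.51 with dioxane. All 3 pairs were higher with TCDD, although TCDD emigrants 1 lay just below dioxane emigrants 2, and the fitted difference was 0.87 ± 0.34 (adjusted p = 0.915). Ndufa4 was first described in complex I and later assigned to complex IV, but by its symbol it is counted here with complex I. Its arrays read 8.72, 8.39 and 8.42 with TCDD in thymocytes, emigrants 1 and emigrants 2, against 8.23, 7.71 and 8.18 with dioxane. Ndufa4 too was higher in each pair, with a fitted difference of 0.48 ± 0.18 (adjusted p = 0.915).

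Ndufb10, an accessory subunit of the membrane arm, had the largest difference of complex I in emigrants, 0.85 ± 0.82 (limma adjusted p = 1.00). It read 6.19, 5.87 and 6.94 with TCDD in thymocytes, emigrants 1 and emigrants 2, against 6.14, 4.47 and 6.63 with dioxane, so most of that difference came from dioxane emigrants 1. Ndufab1, the mitochondrial acyl carrier protein, which also serves lipoic acid synthesis, was at the other end in both fits. It read 7.35, 7.01 and 6.50 with TCDD in thymocytes, emigrants 1 and emigrants 2, against 8.55, 7.39 and 6.99 with dioxane, lower with TCDD in every pair, with a difference of -0.69 ± 0.26 over both sources (adjusted p = 0.915). Its 2 other probe sets were dimmer, and 1 of them had the opposite sign in thymocytes.

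Among the core subunits, Ndufv1, which carries the NADH site, read 7.54, 8.46 and 8.31 with TCDD in thymocytes, emigrants 1 and emigrants 2, against 8.22, 8.40 and 8.71 with dioxane. Ndufs1, the largest of the iron-sulfur subunits, read 7.36, 8.08 and 7.84 with TCDD in thymocytes, emigrants 1 and emigrants 2, against 7.92, 8.07 and 8.35 with dioxane. Both were lower with TCDD in thymocytes and emigrants 2 and nearly equal between the arrays of emigrants 1. Ndufv2, another iron-sulfur subunit, read 9.16, 9.56 and 9.01 with TCDD in thymocytes, emigrants 1 and emigrants 2, against 9.32, 7.85 and 9.32 with dioxane, where only the dioxane array of emigrants 1 stood apart from the others.

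The assembly factors, which help build complex I without staying in it, had medians of -0.08 in thymocytes, 0.15 in emigrants 1 and -0.14 in emigrants 2. Ndufaf5 read 6.03, 5.83 and 5.50 with TCDD in thymocytes, emigrants 1 and emigrants 2, against 6.10, 4.99 and 5.71 with dioxane, with dioxane emigrants 1 the lowest. Ndufaf4 read 8.20, 8.02 and 7.44 with TCDD in thymocytes, emigrants 1 and emigrants 2, against 8.51, 8.50 and 7.52 with dioxane, lower with TCDD in every pair, with a difference of -0.29 ± 0.31 over both sources (limma adjusted p = 0.999). Ndufaf3 was higher in every pair, with a fitted difference of 0.26 ± 0.17. Its arrays read 5.62, 5.18 and 5.36 with TCDD in thymocytes, emigrants 1 and emigrants 2, against 5.21, 4.95 and 5.22 with dioxane, while Ndufaf1 and Ndufaf7 had different signs in different pairs.

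Complex II oxidises succinate and links the chain to the citric acid cycle. Its 4 subunits did not share a direction. Sdhb, the iron-sulfur subunit, had the largest difference of the complex in emigrants, 0.92 ± 0.41 (limma adjusted p = 1.00). It read 7.39, 8.62 and 8.28 with TCDD in thymocytes, emigrants 1 and emigrants 2, against 7.04, 7.03 and 8.03 with dioxane, and the low value of dioxane emigrants 1 was close to that of the thymocyte arrays. Sdha, the flavoprotein that holds the catalytic site, read 9.22, 9.74 and 9.28 with TCDD in thymocytes, emigrants 1 and emigrants 2, against 9.81, 9.97 and 9.45 with dioxane, lower with TCDD in every pair, although a second probe set had the opposite sign in emigrants 1. Of the membrane anchors, Sdhd was 1.29 higher with TCDD in emigrants 1 and 0.33 lower in emigrants 2, and Sdhc differed by 0.27 or less in every pair. A second, dimmer probe set of Sdhc was higher with TCDD by 0.52 in thymocytes, 1.70 in emigrants 1 and 0.20 in emigrants 2.

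Complex III passes electrons from ubiquinol to cytochrome c. All 8 of its measured subunits had a higher mean with TCDD in the fit over both sources, with a median of 0.25, and 0 passed. The pair medians were 0.28 in thymocytes, 0.62 in emigrants 1 and -0.11 in emigrants 2. Uqcrq, a small subunit, had the largest fitted difference, 0.51 ± 0.33, and read 6.61, 6.97 and 5.83 with TCDD in thymocytes, emigrants 1 and emigrants 2, against 6.17, 5.64 and 6.07 with dioxane. Its 4 probe sets disagreed in sign in each pair. Uqcrb, a ubiquinone-binding protein, read 12.95, 12.86 and 12.58 with TCDD in thymocytes, emigrants 1 and emigrants 2, against 12.54, 12.73 and 12.53 with dioxane, with a small but same-signed difference in each pair. Uqcrc1, a core protein, had the smallest fitted difference of the complex, 0.03 ± 0.29, and its pairs had opposite signs. It read 6.97, 8.10 and 8.04 with TCDD in thymocytes, emigrants 1 and emigrants 2, against 7.46, 7.37 and 8.21 with dioxane.

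Complex IV, cytochrome c oxidase, had pair medians of 0.14 in thymocytes, 0.47 in emigrants 1 and -0.10 in emigrants 2. Cox6a1, the common form of subunit VIa, read 11.19, 10.81 and 10.66 with TCDD in thymocytes, emigrants 1 and emigrants 2, against 10.51, 9.68 and 10.47 with dioxane. It was higher with TCDD in every pair, with a fitted difference of 0.67 ± 0.24 (unadjusted p = 0.0354, limma adjusted p = 0.903), while its second probe set was slightly lower with TCDD in emigrants 2. Cox6b1, the common form of subunit VIb, read 10.91, 10.80 and 10.32 with TCDD in thymocytes, emigrants 1 and emigrants 2, against 10.20, 9.15 and 10.26 with dioxane. The fitted difference was 0.81 ± 0.33 (adjusted p = 0.928), and without both arrays of emigrants 1 it was 0.39. Cox6c, another small subunit, was higher by 0.73, 0.76 and 0.43 in thymocytes, emigrants 1 and emigrants 2. Cox5a, which sits on the matrix side, had the lowest difference in emigrants among complex IV genes above the bacterial controls, -0.12 ± 0.36, and read 11.54, 10.75 and 10.03 with TCDD in thymocytes, emigrants 1 and emigrants 2, against 11.28, 10.77 and 10.25 with dioxane. Both of its arrays of emigrants 1 lay above both of emigrants 2. The 3 probe sets of Cox5a disagreed in sign in both emigrant pairs.

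Complex IV also has subunit forms restricted to certain tissues. The forms known from lung (Cox4i2), testis (Cox6b2) and heart or skeletal muscle (Cox7a1 and Cox8b) stayed near the bacterial controls. Cox4i2 lay between 4.36 and 4.78, Cox6b2 between 3.69 and 4.23, Cox7a1 between 3.08 and 3.50, and Cox8b between 3.86 and 4.35. Their common partners lay well above the controls: Cox4i1 between 9.22 and 10.25, Cox6b1 between 9.15 and 10.91, Cox7a2 between 9.93 and 11.15, and Cox8a between 8.81 and 9.10. The muscle form Cox6a2 read 5.03, 4.94 and 4.60 with TCDD in thymocytes, emigrants 1 and emigrants 2, against 5.72, 4.50 and 4.75 with dioxane, highest in dioxane thymocytes, while its common partner Cox6a1 was at least 9.68 on every array. The mean of Cox6a2 over the 6 arrays, 4.923, only just exceeded the highest bacterial control, 4.921. Cox8c, a form described in testis, lay between 6.47 and 6.89, above the controls on every array, with differences between TCDD and dioxane of 0.06 or less in every pair. Cox7b, Cox7b2 and Ndufa4l2 were not analysed here.

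Complex V, the ATP synthase, had pair medians of -0.08 in thymocytes, 0.58 in emigrants 1 and -0.19 in emigrants 2. Its 17 genes included 7 that were lower with TCDD in both thymocytes and emigrants 2 and 1, Atp5k, that was higher in both, beside 32% and 28.8% of all genes, so that the share of lower genes (41.2%) was near that of all genes. Atp5k differed by only 0.03 in thymocytes and 0.01 in emigrants 2, and its probe sets disagreed in sign in both pairs. The alpha, beta and gamma subunits, which form the catalytic head and its shaft, were among the 7. Atp5b, the catalytic beta subunit, read 9.05, 9.60 and 9.74 with TCDD in thymocytes, emigrants 1 and emigrants 2, against 9.57, 8.97 and 10.64 with dioxane. Atp5a1, the alpha subunit, read 11.32, 11.26 and 10.80 with TCDD in thymocytes, emigrants 1 and emigrants 2, against 11.62, 11.82 and 11.25 with dioxane, lower with TCDD in every pair, with -0.43 ± 0.23 in the fit over both sources (limma adjusted p = 0.999), with probe sets that disagreed in sign in thymocytes and emigrants 1. Atp5c1, the gamma subunit, was 0.61 lower in thymocytes, 0.58 higher in emigrants 1 and 0.46 lower in emigrants 2.

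Atp5j2, the membrane subunit f, had the largest difference of the complex in emigrants, 0.80 ± 0.53, and read 8.67, 8.77 and 8.74 with TCDD in thymocytes, emigrants 1 and emigrants 2, against 9.07, 7.21 and 8.69 with dioxane. Dioxane emigrants 1 was more than 1 unit below every other array. Subunit c, which forms the rotating ring, is made from 3 genes with the same mature protein. Atp5g1 read 7.40, 8.36 and 7.36 with TCDD in thymocytes, emigrants 1 and emigrants 2, against 7.58, 7.18 and 7.63 with dioxane. Atp5g2 read 8.33, 8.22 and 7.98 with TCDD in thymocytes, emigrants 1 and emigrants 2, against 8.21, 7.60 and 8.22 with dioxane, and Atp5g3 read 12.14, 11.78 and 11.48 with TCDD in thymocytes, emigrants 1 and emigrants 2, against 11.75, 11.84 and 11.68 with dioxane. In emigrants 1 the difference was 1.18 for Atp5g1 and 0.61 for Atp5g2, and -0.05 for Atp5g3, the ring gene for which dioxane emigrants 1 was not the lowest array.

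The TCDD effect of emigrants was then set against that of thymocytes by an interaction term. With limma 0 of 84 genes passed (0% of all genes called), the smallest adjusted p was 1.00, and the median standard error of 0.56 for these genes exceeds the median difference of 0.15 (51 genes above 0 and 33 below). The median changed sign to -0.10 without dioxane emigrants 1 and was 0.39 without dioxane emigrants 2. Ndufb9, an accessory subunit of complex I, had the largest value, 1.38 ± 0.74, and read 7.95, 8.37 and 8.33 with TCDD in thymocytes, emigrants 1 and emigrants 2, against 8.58, 7.05 and 8.16 with dioxane. The TCDD difference was below 0 in thymocytes and above 0 in both emigrant pairs. Ndufa1, also accessory, had the lowest among complex I genes, -0.80 ± 0.40, from arrays of 11.50, 10.51 and 10.73 with TCDD in thymocytes, emigrants 1 and emigrants 2, against 10.67, 10.58 and 10.60 with dioxane. Only TCDD thymocytes stood apart there. In complex V the ends were Atp5j2 with 1.21 ± 0.92 and Atp5mpl, a small proteolipid, with -0.66 ± 0.40. In the other complexes they were Sdhb (0.56 ± 0.71) and Sdhc (0.06 ± 0.52), Uqcrc1 (0.77 ± 0.61) and Uqcrh (-0.35 ± 0.39), and Cox6a2 (0.84 ± 0.45) and Cox7c (-0.44 ± 1.71). The mean of Cox6a2 lay near the bacterial controls.

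Emigrants were compared with thymocytes with treatment in the model, to see whether cells that had left the lobe differed from those inside it. Emigrants had lower levels of most respiratory chain genes: 64 were lower and 20 higher, with a median difference of -0.25 and a median standard error of 0.25, beside a median of -0.04 over all genes. With limma 0 of 84 genes passed (0% of all genes called). At an unadjusted p under 0.05, 10 genes were lower, beside 3.9% of all genes, and 2 were higher, beside 3.2%. The smallest adjusted p was 0.344, for Atp5j. Between an emigrant array and the thymocyte array of the same treatment, the median over the 84 genes was -0.11 for TCDD emigrants 1, -0.54 for dioxane emigrants 1, -0.24 for TCDD emigrants 2 and -0.07 for dioxane emigrants 2. The 4 differences share 2 thymocyte arrays. Without dioxane emigrants 1 the fitted median was -0.15.

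Marker genes of other cells moved with this comparison. Neutrophil genes had a median difference of 2.71 (10 of 10 higher in emigrants) and macrophage and dendritic genes 3.05 (10 of 10), while T-lineage genes had -1.86 (11 of 12 lower). Fibroblast and endothelial genes (-0.75, 8 of 8 lower) and thymic epithelial genes (-0.33, 6 of 6 lower) lay in the same direction as the respiratory chain genes. Of the 6 epithelial genes, 4 exceeded the bacterial controls on each array except TCDD emigrants 1, where 1 did. The fibroblast and endothelial genes were not lower on every emigrant array. They averaged 5.96 in TCDD emigrants 2 and 4.28 to 4.71 on the other emigrant arrays, against 5.69 and 5.88 in TCDD and dioxane thymocytes. The 3′ to 5′ ratio of Gapdh was 5.60 and 4.75 log2 units in TCDD emigrants 1 and 2 and 4.75 and 4.69 in dioxane emigrants 1 and 2, against 5.86 and 6.10 in TCDD and dioxane thymocytes, lower on every emigrant array. The part of these markers and of this ratio in the lower levels of respiratory chain genes was not tested.

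In 15 genes all 4 emigrant arrays lay below both thymocyte arrays, beside 10.8% of all genes, and in 3 genes they lay above, beside 5.46%. Without both arrays of emigrants 1 the counts were 33 below and 14 above, beside 34.9% and 17.5% of all genes. The 15 comprised 7 genes of complex I (Ndufa2, Ndufa5, Ndufa6, Ndufb6, Ndufc1, Ndufs3 and Ndufs4), the assembly factor Ndufaf5, Cox5a, Cox6a2 and Cox7a2l of complex IV, and Atp5j, Atp5k, Atp5l and Atp5md of complex V. Of the 15, Cox6a2 had a mean near the bacterial controls. The 3 above were Cox4i1, Ndufv1 and Uqcrc2. By complex the medians were -0.35 for complex I (28 of 34 lower), -0.24 for the assembly factors, 0.34 for complex II (3 of 4 higher), -0.05 for complex III, -0.17 for complex IV and -0.27 for complex V (15 of 17 lower). Within complex I the accessory subunits had a median of -0.44 (25 of 28 lower) and the core subunits -0.09.

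**Figure D3:**
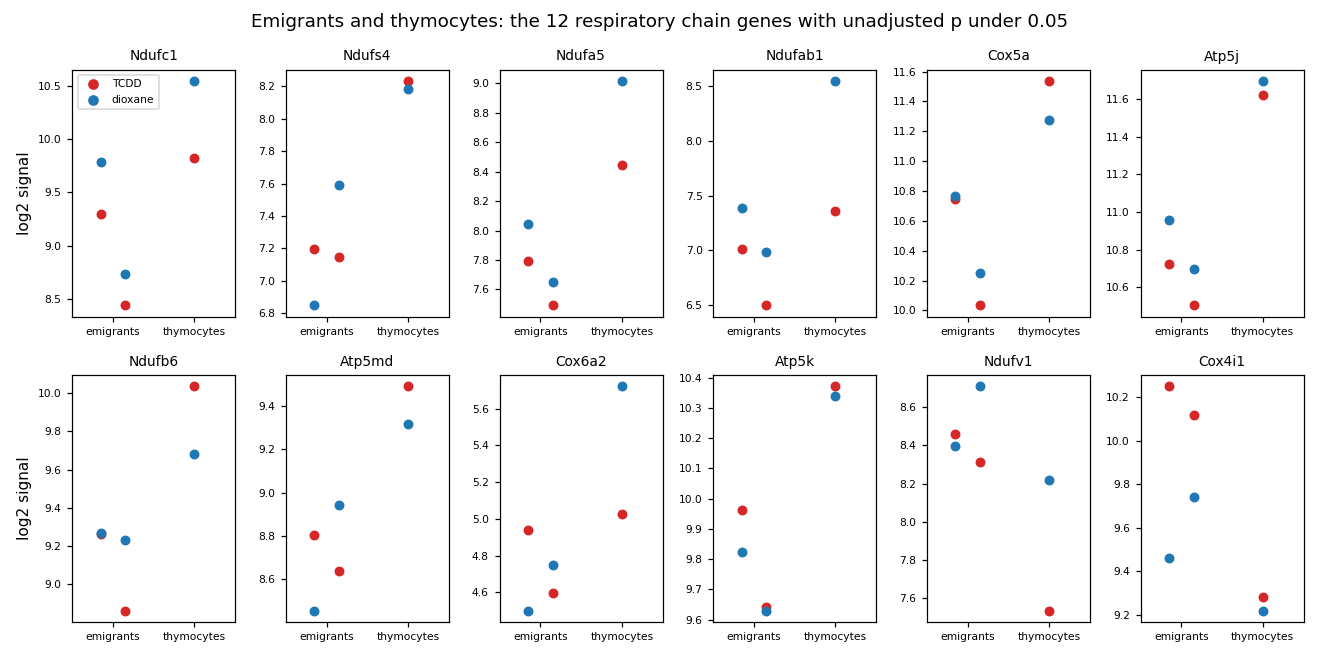
Log2 signal on each array for the 12 genes with an unadjusted p under 0.05 in emigrants against thymocytes, ordered from the lowest difference (Ndufc1) to the highest (Cox4i1), each with its own vertical scale. Emigrants are on the left with number 1 left of number 2, thymocytes on the right, TCDD in red and dioxane in blue; emigrant points lie below thymocyte points for 9 of the 10 lower genes, Ndufab1 being the exception, and above them for Ndufv1 and Cox4i1.

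Complex V gave the smallest p. Atp5j, the coupling factor 6 that joins the peripheral stalk, read 10.73 and 10.51 in TCDD emigrants 1 and 2 and 10.96 and 10.70 in dioxane emigrants 1 and 2, against 11.62 and 11.70 in TCDD and dioxane thymocytes. The emigrant and thymocyte arrays did not overlap, and the fitted difference was -0.94 ± 0.17 (unadjusted p = 0.00223, limma adjusted p = 0.344). Atp5md, also called DAPIT, read 8.80 and 8.64 in TCDD emigrants 1 and 2 and 8.46 and 8.94 in dioxane emigrants 1 and 2, against 9.49 and 9.32 in TCDD and dioxane thymocytes, a difference of -0.69 ± 0.20 (adjusted p = 0.560). Atp5k, the membrane subunit e, read 9.96 and 9.64 in TCDD emigrants 1 and 2 and 9.82 and 9.63 in dioxane emigrants 1 and 2, against 10.37 and 10.34 in TCDD and dioxane thymocytes, a difference of -0.59 ± 0.18. Atp5l, subunit g, did not overlap either and differed by -0.70 ± 0.28. At the other end stood the catalytic subunit Atp5b, with 0.43 ± 0.47, whose arrays overlapped: it read 9.60 and 9.74 in TCDD emigrants 1 and 2 and 8.97 and 10.64 in dioxane emigrants 1 and 2, against 9.05 and 9.57 in TCDD and dioxane thymocytes.

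In complex I the 5 genes that were lower at an unadjusted p under 0.05 were all accessory subunits, as are 28 of its 34 genes. Ndufc1, a small subunit of the membrane arm, had the lowest fitted difference, -1.12 ± 0.39 (limma adjusted p = 0.628), and read 9.29 and 8.44 in TCDD emigrants 1 and 2 and 9.79 and 8.73 in dioxane emigrants 1 and 2, against 9.83 and 10.54 in TCDD and dioxane thymocytes. Dioxane emigrants 1 lay just below TCDD thymocytes, and emigrants 2 lay farthest from them. Ndufs4, an accessory subunit whose loss causes Leigh syndrome in humans, read 7.20 and 7.15 in TCDD emigrants 1 and 2 and 6.85 and 7.59 in dioxane emigrants 1 and 2, against 8.23 and 8.19 in TCDD and dioxane thymocytes. Its difference was -1.01 ± 0.24 (adjusted p = 0.478), while its other 2 probe sets were dimmer and 1 of them had the opposite sign. Ndufa5, of the peripheral arm, read 7.79 and 7.49 in TCDD emigrants 1 and 2 and 8.04 and 7.65 in dioxane emigrants 1 and 2, against 8.44 and 9.02 in TCDD and dioxane thymocytes, a difference of -0.99 ± 0.21 (adjusted p = 0.427).

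Ndufb6, another membrane-arm subunit, read 9.26 and 8.86 in TCDD emigrants 1 and 2 and 9.27 and 9.23 in dioxane emigrants 1 and 2, against 10.04 and 9.68 in TCDD and dioxane thymocytes, a difference of -0.71 ± 0.21. Ndufab1 had a difference of -0.98 ± 0.28, but dioxane emigrants 1, with 7.39, lay just above TCDD thymocytes, with 7.35. The core subunit Ndufv1 went the other way. It read 8.46 and 8.31 in TCDD emigrants 1 and 2 and 8.40 and 8.71 in dioxane emigrants 1 and 2, against 7.54 and 8.22 in TCDD and dioxane thymocytes, higher by 0.59 ± 0.20 (limma adjusted p = 0.628), and Ndufs1 was higher by 0.45 ± 0.19. Among assembly factors the range was from -0.55 ± 0.27 for Ndufaf5 to 0.08 ± 0.17 for Ndufaf7.

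Complexes II and III held several of the genes with higher levels in emigrants. Sdhb read 8.62 and 8.28 in TCDD emigrants 1 and 2 and 7.03 and 8.03 in dioxane emigrants 1 and 2, against 7.39 and 7.04 in TCDD and dioxane thymocytes, higher by 0.78 ± 0.34 (limma adjusted p = 0.732), with dioxane emigrants 1 just below both thymocyte arrays. Sdhd was higher by 0.57 ± 0.48, and Sdhc, the lowest of the complex, differed by -0.02 ± 0.22. Sdha was higher by only 0.10, and its second probe set had the opposite sign, with -0.45. The core proteins of complex III were higher: Uqcrc2 read 9.79 and 9.57 in TCDD emigrants 1 and 2 and 9.27 and 9.87 in dioxane emigrants 1 and 2, against 9.16 and 9.01 in TCDD and dioxane thymocytes, a difference of 0.54 ± 0.22, and Uqcrc1 differed by 0.72 ± 0.31, with dioxane emigrants 1 between the thymocyte arrays. The small subunit Uqcr11 was the lowest of complex III, with -0.34 ± 0.28.

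Complex IV held genes with differences of opposite sign. Cox4i1, the common form of subunit IV, read 10.25 and 10.12 in TCDD emigrants 1 and 2 and 9.46 and 9.74 in dioxane emigrants 1 and 2, against 9.28 and 9.22 in TCDD and dioxane thymocytes, higher by 0.64 ± 0.20 (limma adjusted p = 0.591). Cox5a read 10.75 and 10.03 in TCDD emigrants 1 and 2 and 10.77 and 10.25 in dioxane emigrants 1 and 2, against 11.54 and 11.28 in TCDD and dioxane thymocytes, a difference of -0.96 ± 0.28 (adjusted p = 0.560). Its emigrant and thymocyte arrays did not overlap. Cox6a2, with a mean near the bacterial controls, had a difference of -0.68 ± 0.26, and Cox7a2l one of -0.54 ± 0.23.

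The other genes of mitochondrial energy metabolism gave a frame for these values. The pathway lists held 74 mitochondrial ribosomal proteins, 24 assembly factors and translation activators outside the rule, 21 electron carriers, dehydrogenases and exchangers, 18 genes of the citric acid cycle and pyruvate entry, and 19 regulators of mitochondrial biogenesis. With limma 0 of them passed in any of the 4 comparisons. Mitochondrial ribosomal proteins, which translate the subunits encoded in mitochondrial DNA, had TCDD minus dioxane medians of -0.10 in thymocytes, 0.73 in emigrants 1 and -0.12 in emigrants 2, and dioxane emigrants 1 was the lowest array for 52 of the 74. The assembly factors outside the rule had 0.05, 0.37 and 0.01 in these pairs, the carriers -0.08, 0.36 and -0.08, and the citric acid cycle -0.12, 0.26 and -0.05. The regulators had -0.18, 0.08 and -0.22.

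Cycs, the cytochrome c that links complexes III and IV, read 10.54, 11.19 and 10.10 with TCDD in thymocytes, emigrants 1 and emigrants 2, against 10.44, 9.92 and 10.47 with dioxane. Tfam, which packages and transcribes mitochondrial DNA, read 7.90, 7.84 and 8.52 with TCDD in thymocytes, emigrants 1 and emigrants 2, against 8.34, 7.31 and 8.77 with dioxane. Neither was called, with TCDD differences over both sources of 0.34 ± 0.34 for Cycs and -0.05 ± 0.44 for Tfam (SE). In emigrants against thymocytes the list medians were -0.20 for mitochondrial ribosomal proteins (55 of 74 lower), -0.14 for the assembly factors outside the rule, -0.03 for the carriers, 0.07 for the citric acid cycle and -0.02 for the regulators.

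**Figure D4:**
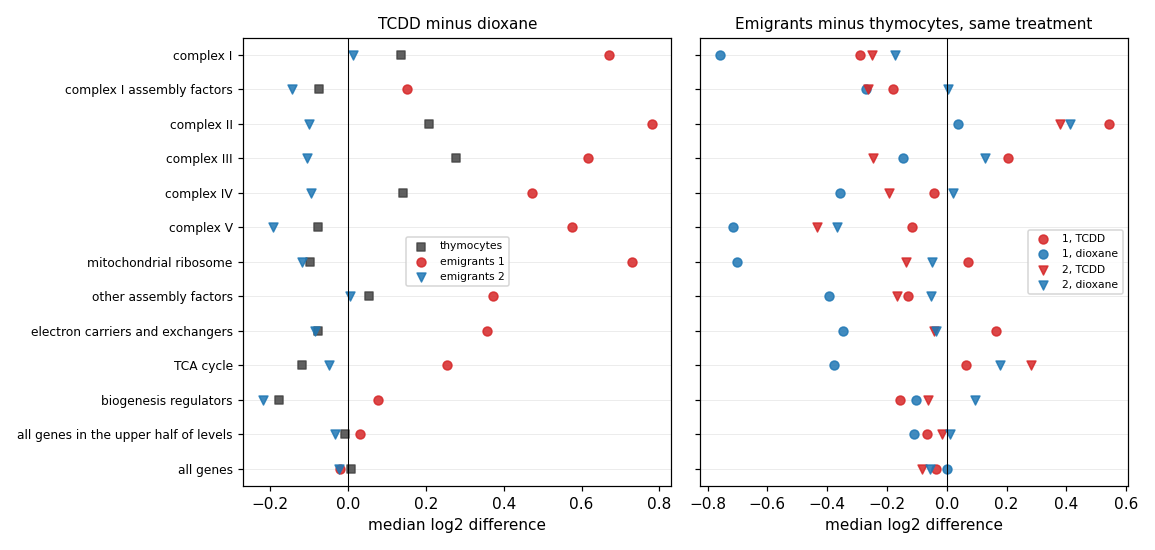
Median log2 difference by complex and by list of other mitochondrial genes. The left panel gives TCDD minus dioxane in the 3 pairs, the right panel each emigrant array minus the thymocyte array of the same treatment; in the left panel emigrants 1 has the highest median in every list shown except all genes, and in the right panel dioxane emigrants 1 has the lowest in every list shown except complex III, the regulators and all genes.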

How the data were processed

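RNA of pooled double-negative cells was measured on 6 Affymetrix arrays. The deposited values are on the log2 scale and were made with RMA, per the submitters' processing notes. RMA corrects background, normalises between arrays and summarises the probes of a set. The affy package of Bioconductor is named in the series design text, without a version. Detection calls are absent, and RMA compresses differences of dim genes.

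Deposited values were taken without further normalisation. Of 22690 probe sets, 64 controls, 691 that name several genes (8 of them matching the symbol rule) and 1555 that name no gene were left out. Tests used limma 3.58.1 under R 4.3.3 (lmFit, then eBayes with a single prior variance) on 12393 genes, with Benjamini-Hochberg adjustment across all of them and calls at an adjusted p under 0.05. The comparisons were TCDD against dioxane in emigrants, the same over both sources (covariate: source), emigrants against thymocytes (covariate: treatment), and the interaction, with 2, 3, 3 and 2 residual degrees of freedom. A lone thymocyte array is assumed to vary like the emigrant arrays. The number of arrays limits the precision, and errors are standard errors of these fits. Differences between 2 single arrays have no test. The code was tested on simulated data.

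The genes, lists and tests were chosen with earlier results of these data known. Any respiratory chain gene could be named. Given in full were genes called in a comparison, the highest and lowest of each complex in each comparison among those above the bacterial controls, genes at least 1.5-fold apart in all 3 pairs, and tissue forms with their partners. Genes with an unadjusted p under 0.05 were added after their values were seen. Promoters came from a RefSeq table on GRCm38.p6. Array numbers join emigrant arrays only to describe differences of single arrays, and the tests did not pair them: the label of dioxane emigrants 1 has no number, and while the TCDD and dioxane arrays of a number deviated together (r = 0.56 across genes), there are only 2 such pairs. Alternatives were cyclic loess, median centring, a level filter, an intensity trend, the mean of all probe sets, a threshold of 0.1, a replicate block, and the omission of arrays.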

Additional observations from a re-analysis of the deposited data

How the results depend on the processing

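The count of called respiratory chain genes was 0 in all 4 comparisons under every alternative run, the replicate block among them. Each block holds 1 TCDD and 1 dioxane array. The median TCDD differences under the block, 0.21 in emigrants and 0.21 over both sources, were therefore unchanged by construction. The medians depended on single arrays. Leaving out 1 array at a time gave medians of 0.0335 (without dioxane emigrants 1) to 0.5049 (without dioxane emigrants 2) for TCDD in emigrants, where the value with all arrays was 0.21, and -0.101 to 0.3886 for the interaction (without the same 2 arrays), where it was 0.15. Over both sources the TCDD median was 0.0440 without dioxane emigrants 1 and 0.022 without both arrays of emigrants 1. For emigrants against thymocytes the median stayed below 0, from -0.3568 to -0.1527, in each omission of 1 array. The count of genes with every emigrant array below both thymocyte arrays was 15 with all arrays, 16 to 25 without 1 emigrant array and 33 without both arrays of emigrants 1. The count above was 3 with all arrays, 3 to 10 without 1 emigrant array and 14 without both arrays of emigrants 1. Fewer arrays make non-overlap easier by construction, and the causes of the other shifts were not tested. Cyclic loess, median centring and the mean of all probe sets kept the sign of the median in each of the 4 comparisons. Of 466 recomputed values of single genes, 423 stayed within 1 standard error, 43 moved by more, 28 changed sign and 0 became a call. The intensity trend, the threshold of 0.1, the level filter and the replicate block leave a gene's difference unchanged by construction. Part of the 423 therefore could not move. Without both arrays of emigrants 2, 225 of all genes were called in emigrants against thymocytes and 0 of the 84. The interaction without either thymocyte array was not run. With 6 arrays the median standard error of 0.21 to 0.50 over genes limits what can be called.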

Other observations

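Some other mitochondrial genes were singled out after their values were seen, and 0 of them passed after adjustment with limma. Lrpprc, which stabilises the messenger RNAs of mitochondrial DNA, read 5.05, 5.34 and 5.36 with TCDD in thymocytes, emigrants 1 and emigrants 2, against 5.86, 5.94 and 5.66 with dioxane. Its difference over both sources was -0.57 ± 0.17 (SE, adjusted p = 0.811), with the TCDD array lower in all 3 pairs. Pdha1, a subunit of pyruvate dehydrogenase, differed by -0.58 ± 0.17 (adjusted p = 0.811) and Suclg1, a subunit of succinyl-CoA ligase, by 0.62 ± 0.20 (adjusted p = 0.839).

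In emigrants against thymocytes, Mrps12, a protein of the small mitochondrial ribosomal subunit, differed by -0.92 ± 0.16 (limma adjusted p = 0.320). Polg2, the accessory subunit of the mitochondrial DNA polymerase, differed by -0.83 ± 0.17 (adjusted p = 0.390), and Dld, a dehydrogenase shared by several mitochondrial complexes, by 1.43 ± 0.47 (adjusted p = 0.616).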
